A study of Ambystoma mexicanum with 8 samples.

Results

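Of the 90099 transcripts in the mRNA table of regenerating axolotl forelimbs, the 200 described here stood higher at 3, 6 and 14 days post amputation (dpa) than in the uninjured limb and kept a similar level over these 3 stages. They were chosen by their own values. A transcript needed at least 300 reads in each of the libraries from 3, 6 and 14 dpa, and its highest level among these libraries, in reads per 1000000 of the library (cpm), could be at most 2 times its lowest. The 5147 transcripts that passed were ordered by the log2 ratio of their lowest regenerating level to their level at 0 dpa, with 0.5 cpm added to each, and the first 200 were taken, which is 3.89% of them. The ordering value was 6.27 for the first, 2.18 for the median and 1.79 for the last of the 200. Of the 200, 92, 112 and 43 were chosen again when the library of 3, 6 or 14 dpa was left out of the rule. Since the rule used the rise itself, the rise is given as a description and was not tested. At the edge, the members at ranks 198, 199 and 200 had 53, 162 and 195 reads at 0 dpa and values of 1.79 each. Just outside, the unnamed transcript at rank 201 and those of *kdm5c* and *ptprfb* at ranks 202 and 203 had 266, 111 and 682 reads at 0 dpa and values of 1.78 each.

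The axolotl (*Ambystoma mexicanum*) is a salamander that regrows amputated limbs. Forelimbs of animals from a stock centre were cut through the middle of the zeugopod, the segment between elbow and wrist, and RNA was taken at 3, 6 and 14 dpa and from uninjured limbs at 0 dpa. Neither strain nor age is given in the labels. Each stage has 1 mRNA library and 1 small RNA library, made per the study's methods from a pool of at least 4 tissues, so no value has a replicate error and no comparison has a p-value. The mRNA libraries held 15249786, 36931886, 19049794 and 18581310 counted reads at 0, 3, 6 and 14 dpa, so levels rest on the most reads at 3 dpa and on the fewest at 0 dpa. The 95% intervals given below are exact Clopper-Pearson intervals and cover counting error only. Reads were counted on transcripts that the authors assembled from the same libraries with Trinity. A Trinity component groups assembled transcripts of similar sequence, which are often isoforms or allelic copies of a gene. Gene names are those of zebrafish genes or Swiss-Prot proteins that the study's supplementary tables pair with a transcript, and 62 of the 200 members have one.

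After amputation, the stump is closed by a wound epidermis, inflammatory cells enter, and connective tissue and other cells beneath the epidermis lose features of their mature state and gather as a blastema. This mound of proliferating progenitors later forms the missing skeleton, muscle and skin. Wound healing comes first and growth and patterning of the blastema follow, so a transcript that is raised at an early healing stage need not be raised once the blastema grows. The members are those that held one raised level through these phases.

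In cpm, the median level of the members was 5.83, 40.1, 42.3 and 48.4 in the libraries of 0, 3, 6 and 14 dpa. Together they took up 0.294% of all reads at 0 dpa and 1.82%, 1.81% and 2.11% at 3, 6 and 14 dpa. At 6 dpa the most abundant member reached 1423 cpm and the least abundant 15.7 cpm, which is the rule's minimum of 300 reads in that library. Fold changes from here on are log2 ratios of a regenerating stage to 0 dpa after TMM scaling (trimmed mean of M values), which gives smaller rises than the ratio of cpm. The median log2 fold change of the members was 2.27, 2.03 and 2.38 at 3, 6 and 14 dpa, against 0.17, 0.06 and 0.05 over all transcripts with at least 10 reads in the libraries compared. These medians are the same with transcripts at 3 reads or fewer set to their bound. All 200 were past the cut-off of 0.58 at each stage, as the rule required, where 37.5% of all transcripts compared were higher at 3 dpa, 32.9% at 6 dpa and 33.1% at 14 dpa. Of the transcripts that passed the rule's limits on reads and flatness, 20.5% were higher by over 0.58 at all 3 stages.

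**Figure D1:**
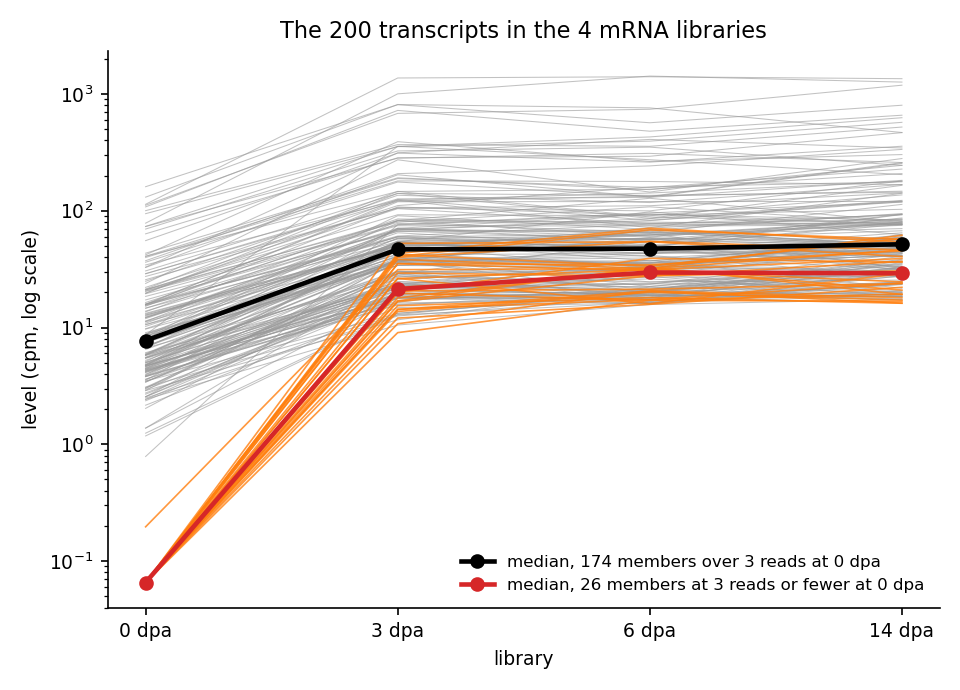
Level of each of the 200 transcripts in the 4 mRNA libraries, in cpm on a log axis, with an entry of 0 drawn as 1 read. Grey lines are the 174 members with more than 3 reads at 0 dpa and the black line is their median, which is 7.73 cpm at 0 dpa and between 46.7 and 51.6 cpm afterwards. Orange lines are the 26 members at 3 reads or fewer at 0 dpa, and the red line is their median.

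The members fell into 2 kinds by what they counted at 0 dpa. At 0 dpa, 26 members had 3 reads or fewer, the floor taken for detection, and 25 of these carry an entry of 0, which can stand for 0 or 1 read. These 26 hold all but a pair of the first 28 ranks. Among the 6987 transcripts with at least 300 reads at 3, 6 and 14 dpa, 0.83% were that low at 0 dpa. The ordering puts transcripts with so few reads at 0 dpa first. Their high ranks and their larger share among the members thus follow from the choice. Against 3 reads at 0 dpa, the 25 members were at least 39.9-fold to at least 232-fold higher at 3 dpa and at least 56.8-fold to at least 255-fold higher at 6 dpa. At 14 dpa they were at least 59.8-fold to at least 229-fold higher. Every one of the 26 belongs to a component with other transcripts, and those other transcripts held between 54 and 12593 reads at 0 dpa, with a median of 643. Each of these components was thus counted at 0 dpa, on assembled sequences other than the member.

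The transcript with the largest ordering value, comp41126_c0_seq2, shows this. It had 0, 1588, 1350 and 1006 reads at 0, 3, 6 and 14 dpa, and so was higher by at least 189.8-fold at 3 dpa, 255-fold at 6 dpa and 201-fold at 14 dpa. The other transcript of its component had 4756, 8962, 3652 and 569 reads at the same stages. The sum over both had log2 fold changes of -0.33, -0.75 and -2.34 at 3, 6 and 14 dpa and was thus lower at 6 and 14 dpa while the member was higher. The transcript at rank 2, comp23974_c0_seq1, had 0, 1501, 1305 and 1059 reads, while the sum over its component was at -0.14, 0.09 and 0.33. For comp40637_c0_seq1, at rank 8, the 13 transcripts of the component held 12593 reads at 0 dpa on sequences other than the member, and the sum over all 13 was at 0.23, -0.31 and -0.01. For ranks 2 and 8 the component thus stayed within the cut-off of 0.58 at every stage.

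For several other members of this kind the sum over the component, which includes the member's own reads, was higher at some or all stages. For *sh3gl1b*, an endophilin that bends membranes in endocytosis, the member had 0, 1551, 638 and 1077 reads at 0, 3, 6 and 14 dpa. Its component was at log2 fold changes of 0.82, 0.45 and 0.60, past the cut-off at 3 and 14 dpa and under it at 6 dpa. A transcript of *rbbp5*, a subunit of histone H3 lysine methyltransferase complexes, had 0, 727, 328 and 359 reads and a component at 1.03, 0.50 and 0.93. The transcript of *trabd* had 0, 739, 745 and 674 reads and a component at 1.31, 1.58 and 1.64. Without the member, the rest of the component was at -0.14, -0.30 and -0.93 for *sh3gl1b* and at -2.04, -2.87 and -1.25 for *rbbp5*. For *trabd* it was at 0.22, -0.16 and 0.15. Among the unnamed ones of the first 10 ranks, comp40999_c0_seq3 had 0, 1470, 1043 and 858 reads and a component at 1.56, 1.18 and 2.42, and comp40203_c0_seq2 had 0, 971, 595 and 725 reads and a component at 2.69, 2.64 and 3.71. Without the member, the rest of comp40999_c0 was at 0.98, 0.24 and 2.14, and that of comp40203_c0 had 54, 0, 0 and 461 reads. The remaining unnamed ones were comp33993_c0_seq1 with 0, 1301, 657 and 843 reads and comp39563_c0_seq3 with 0, 1082, 526 and 685 reads. Their components were at 0.65, -0.04 and 0.41 and at 0.32, 0.02 and 0.11.

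**Figure D2:**
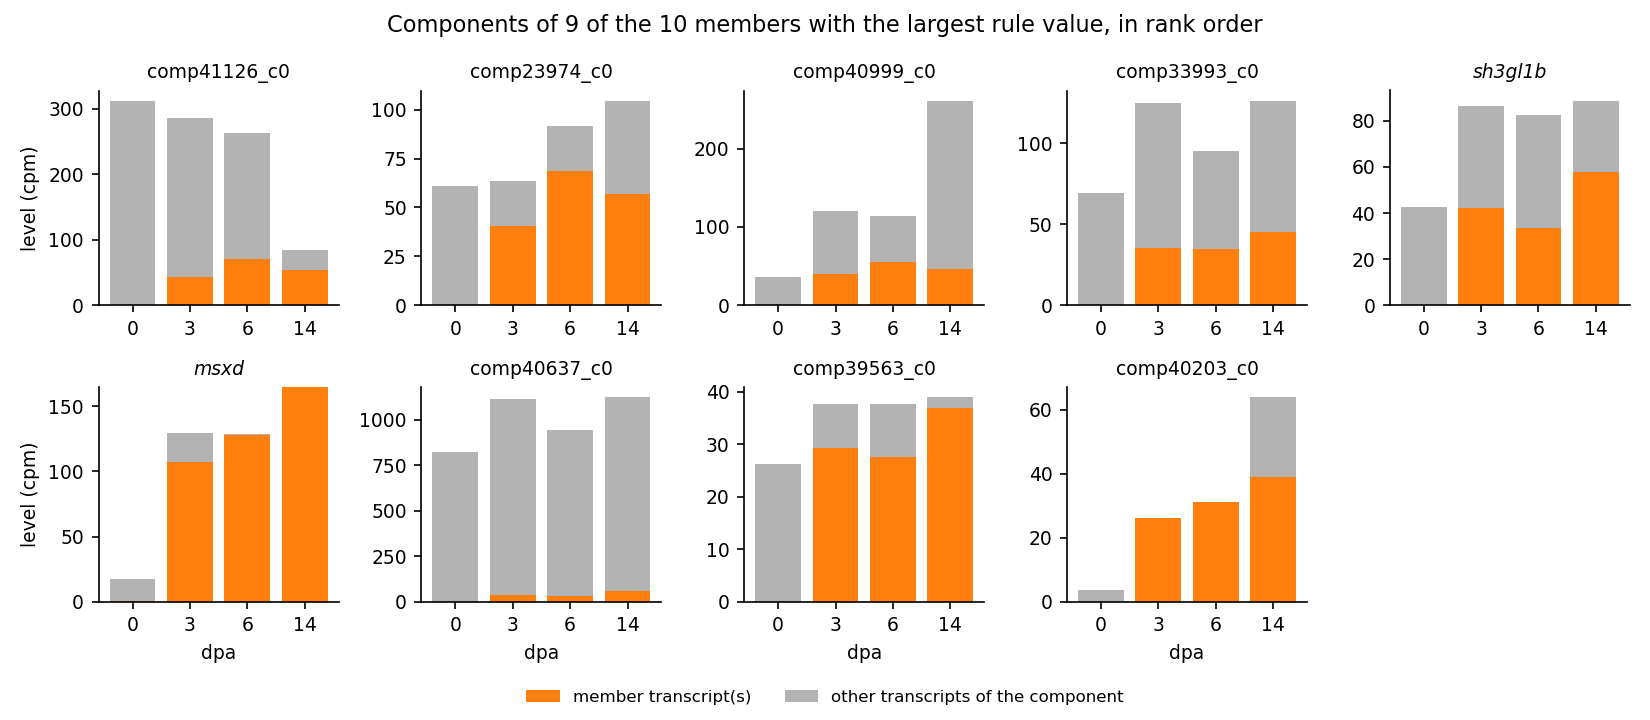
Levels in cpm of the components of 9 of the 10 members with the largest ordering value at 0, 3, 6 and 14 dpa, with the member transcript in orange and the other transcripts of the same component in grey. In comp41126_c0 and comp40637_c0 the grey part makes up the whole level at 0 dpa and most of it at 3 dpa. In *msxd* the 2 members hold 5.68% of the component's reads at 0 dpa, 83.2% and 99.5% at 3 and 6 dpa and all of them at 14 dpa.

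Over all members, the sum over the component was compared with 0 dpa in the same way. The 200 members lie in 195 components, 75 of which consist of the member alone, and 5 of which hold 2 members each. Of the 195, 149 (76.4%) were higher by over 0.58 at all 3 stages, against 13.9% of all components compared. By stage, 172 were higher and 1 lower at 3 dpa, against 35.5% and 28.5% of all components. At 6 dpa, 156 were higher and 1 lower, against 31.1% and 29.8%, and at 14 dpa 158 were higher and 3 lower, against 31% and 31.9%. The members' own reads are part of these sums. In the 75 single-transcript components the sum is the member, so all were higher. Of the 120 components with several transcripts, 74 were higher at all 3 stages and 20 at none, against 14.6% higher at all 3 among all components of this kind. Of the 25 components with a member at 3 reads or fewer at 0 dpa, 8 were higher at all 3 stages, and their median log2 fold changes were 0.64, 0.23 and 0.41. Among the other 95 components with several transcripts, 66 were higher at all 3 stages, with medians of 1.42, 1.06 and 1.33.

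The reads of the other transcripts of the same components, which the rule did not choose, moved less. One that rose as much and passed the limits would itself be a member, so a smaller rise is partly set by the choice. The shares below are of sums over these other transcripts, while those of all transcripts count single transcripts. At 6 dpa, 40 of the 116 components with at least 10 such reads were higher (34.5%, against 32.9% of all transcripts), 30 were lower (25.9%, against 30.8%) and the median was 0.13. In the 25 components with a member at the floor, the other transcripts had a median of -0.42 at 6 dpa, with 1 higher and 11 lower. In the components without such a member, the median was 0.38, with 39 higher and 19 lower of 91. At 3 and 14 dpa, 47.9% and 42.4% of the other-transcript sums were higher, against 37.5% and 33.1% of all transcripts, and 22.2% and 24.6% were lower, against 28.6% and 33%. The counter divides the reads of similar sequences among them by an estimate, so a shift between isoforms, between allelic copies or in that division cannot be told apart here.

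**Figure D3:**
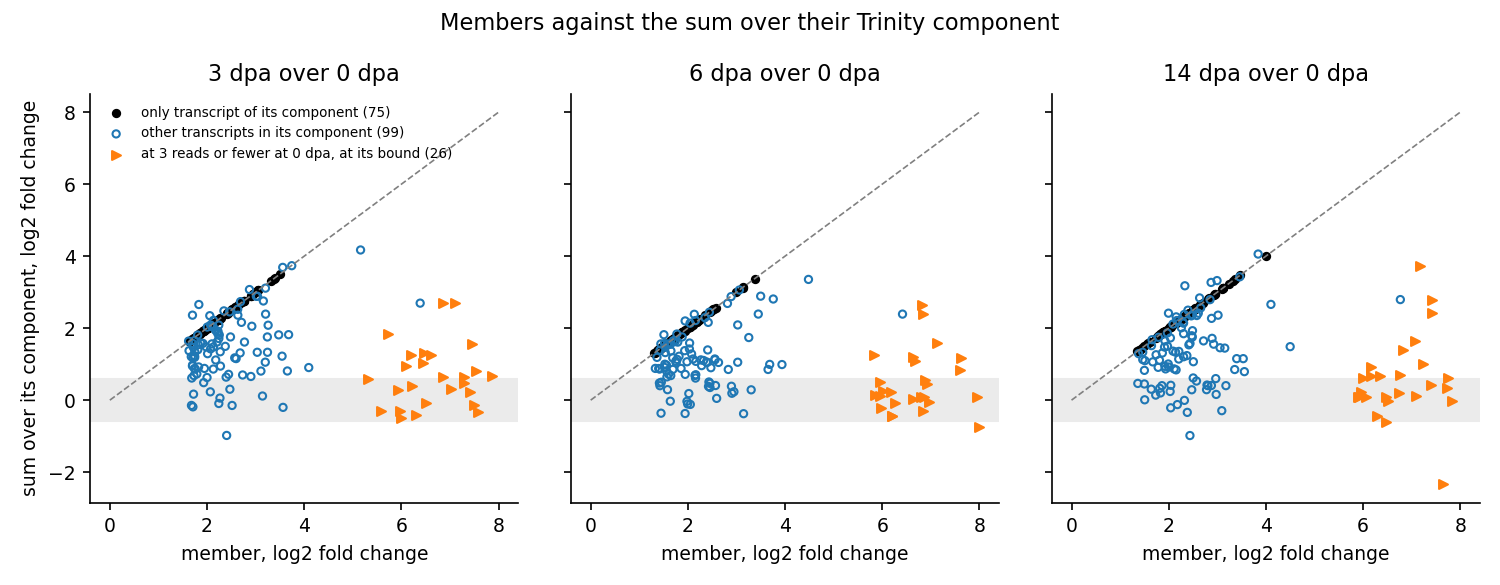
Log2 fold change of the sum over the Trinity component (vertical) against that of the member (horizontal) at 3, 6 and 14 dpa, for the 75 members that are alone in their component (black, on the diagonal), 99 others (blue rings) and 26 members at 3 reads or fewer at 0 dpa (orange, drawn at the bound that 3 reads give). The grey band marks changes within 0.58, and the orange points lie mostly in or near it while the blue rings lie mostly above it.

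The named members are described by role below, in lists drawn up by gene symbol. Of the 62 named members, 32 fall in 10 of the 15 lists, and 32 are alone in their component, where the sum is the member. Of the 30 with other transcripts, 24 have a component that was higher at all 3 stages, a sum that includes the member. The exceptions are *sh3gl1b*, *rbbp5*, *lims1*, *cd276*, *mgrn1b* and *mia3*. For 41 of the named members the name comes only from a table in which the study lists transcripts that rose, so having a name there is not independent of the rise. Counts of named members per list therefore say nothing of which functions are frequent among all 200. Over all genes, 62 of the 4914 named transcripts are members.

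Cell cycle genes form the largest named group by number, with 8 transcripts of 7 genes out of 153 named transcripts in their list. The number depends on the length of the list, and 2 of 25 in the nuclear transport list are members. Cells that enter mitosis build a spindle with motor proteins and are driven by a cyclin-dependent kinase, and all of the 7 genes but *rrm2* act in mitosis or the division that follows. The kinase *cdk1*, which starts mitosis, was at 3.41, 30.2, 28.2 and 47.9 cpm at 0, 3, 6 and 14 dpa, with log2 fold changes of 2.94 at 3 dpa (95% interval 2.54 to 3.37), 2.55 at 6 dpa (95% interval 2.13 to 2.99) and 3.35 at 14 dpa (95% interval 2.95 to 3.79). A cyclin of the B family, *ccnb3*, was at 2.42, 20.8, 19.4 and 37.0 cpm, with log2 fold changes of 2.90, 2.50 and 3.47 at 3, 6 and 14 dpa. Both stood lowest of the regenerating stages at 6 dpa and highest at 14 dpa. The spindle motor *kif11*, which pushes the poles apart, was at 5.83, 45.2, 49.0 and 80.1 cpm (log2 fold changes 2.75, 2.57 and 3.32). The chromosome-bound motor KIF4A was at 2.88, 39.1, 34.1 and 56.7 cpm (3.56, 3.06 and 3.84), the largest rise of the group at all 3 stages. *INCENP*, matched to the *Xenopus* protein that holds the chromosomal passenger complex together, was at 7.86, 58.3, 53.1 and 93.2 cpm (2.68, 2.25 and 3.11). In all of these the level at 14 dpa was above that at 3 and 6 dpa, as for *cdk1*. *racgap1*, a part of the centralspindlin complex needed for cell division, was at 3.41, 30.1, 17.9 and 33.3 cpm (2.94, 1.89 and 2.83). The small subunit of ribonucleotide reductase, *rrm2*, which makes deoxyribonucleotides for DNA synthesis, has 2 members that are its whole component. They were at 19.7, 141, 86.1 and 165 cpm and at 11.2, 42.0, 43.1 and 61.3 cpm, and their sum rose by 2.36, 1.56 and 2.42 on the log2 scale at 3, 6 and 14 dpa. All 8 had their highest cpm at 14 dpa, while on the TMM scale *racgap1* and the first *rrm2* member were highest at 3 dpa, within counting error of 14 dpa.

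Genes for signals and patterning make up 5 members, of 120 named transcripts in their list. Homeobox genes of the Msx and Prrx families and Wnt ligands are known from limb buds, where they mark undifferentiated mesenchyme and direct outgrowth. The transcript paired with *msxd*, a homeobox gene named after the zebrafish, had the largest log2 fold changes of any member with more than 3 reads at 0 dpa. It was at 0.786, 76.1, 95.7 and 118 cpm at 0, 3, 6 and 14 dpa, with 12 reads at 0 dpa and log2 fold changes of 6.38 at 3 dpa (95% interval 5.59 to 7.35), 6.42 at 6 dpa (95% interval 5.62 to 7.38) and 6.77 at 14 dpa (95% interval 5.97 to 7.73). A further member of the same component, comp40850_c0_seq5, had 3, 1156, 608 and 859 reads, which gives a log2 fold change of 6.80 at 6 dpa (95% interval 5.29 to 9.12). The sum over the component rose less, by 2.69, 2.39 and 2.79. Its other transcripts had 249, 799, 13 and 0 reads at 0, 3, 6 and 14 dpa, so part of the members' rise goes with their loss. *prrx1b*, a homeobox gene of limb mesenchyme, has 2 members among the 14 transcripts of its component, at 8.32, 90.7, 69.2 and 49.4 cpm and at 5.77, 37.1, 35.2 and 30.3 cpm, and the component was at 1.76, 1.14 and 0.87. Both members and the component stood highest at 3 dpa on the TMM scale. The ligand *wnt5b*, a Wnt of the non-canonical branch that steers cell movement, was at 6.94, 37.4, 39.4 and 50.4 cpm (2.22, 2.0 and 2.40). *snai2*, a zinc finger repressor known for loosening epithelial contacts, was at 21.4, 146, 88.5 and 77.6 cpm (2.57, 1.55 and 1.40). It was highest at 3 dpa, with its level at 14 dpa near the 2-fold limit below. *bambia*, a decoy receptor that dampens BMP and activin signals and is in none of the lists, was at 8.06, 69.4, 65.4 and 51.6 cpm (2.90, 2.52 and 2.22). The proto-oncogene *mycn*, listed with the transcription regulators of the early response, was at 8.78, 58.0, 47.4 and 40.1 cpm (2.52, 1.93 and 1.74) and also stood highest at 3 dpa.

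Matrix and adhesion genes include some of the most abundant members. Tenascin C, fibrillins and emilins are extracellular glycoproteins, and tenascin C is known as an early component of the matrix of the regenerating newt and salamander limb. The *tnc* member was at 8.65, 356, 273 and 204 cpm at 0, 3, 6 and 14 dpa, with log2 fold changes of 5.16 at 3 dpa (95% interval 4.91 to 5.42), 4.48 at 6 dpa (95% interval 4.23 to 4.74) and 4.10 at 14 dpa (95% interval 3.85 to 4.37). It is the smaller part of its component, whose other 2 transcripts had 1809, 84348, 29829 and 16699 reads and whose sum was at 4.17, 3.35 and 2.66. The *fbn2b* member, a fibrillin of elastic microfibrils and the member with the most reads at 6 dpa, was at 78.3, 1003, 1423 and 1264 cpm (3.47, 3.68 and 3.56). Its component rose less, by 1.81, 0.99 and 0.79. *emilin1b*, an elastic fibre glycoprotein, was at 131, 812, 760.0 and 468 cpm (2.43, 2.04 and 1.38). The level of *tnc* and *emilin1b* was highest at 3 dpa and lowest at 14 dpa in cpm, while that of the *fbn2b* member was highest at 6 dpa. Summed over its component, *fbn2b* was instead also highest at 3 dpa and lowest at 14 dpa. The other transcripts of that component had 7270, 45950, 2642 and 986 reads at 0, 3, 6 and 14 dpa. Of the adhesion genes, the *cdh11* member, a cadherin of mesenchyme, was at 12.3, 47.8, 70.9 and 93.4 cpm (1.76, 2.03 and 2.47) and its component at 0.86, 1.42 and 1.79. The *lims1* member, an adaptor at focal adhesions, was at 2.55, 37.1, 19.8 and 24.6 cpm (3.65, 2.45 and 2.81), but its component of 6 transcripts was at 0.81, 0.47 and 0.40 and so under the cut-off at 6 and 14 dpa. Outside the lists, *angptl2a*, a secreted angiopoietin-like protein, was at 1.38, 17.9, 20.3 and 30.4 cpm (3.50, 3.37 and 4.01), and *rai14*, an actin-associated protein, was at 7.99, 82.3, 128 and 80.8 cpm (3.16, 3.50 and 2.88).

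Genes for folding and export in the endoplasmic reticulum (ER) make up 5 members, of 66 named transcripts in their list. Secreted and membrane proteins fold there with the help of the chaperone BiP and its partners. BiP itself, *hspa5*, was at 108, 723, 480.1 and 658 cpm at 0, 3, 6 and 14 dpa, with log2 fold changes of 2.54 at 3 dpa (95% interval 2.47 to 2.61), 1.65 at 6 dpa (95% interval 1.58 to 1.73) and 2.15 at 14 dpa (95% interval 2.08 to 2.23). *hyou1*, an ER chaperone that exchanges nucleotide on BiP, was at 41.9, 390.3, 265 and 303 cpm (3.01, 2.16 and 2.40). The BiP co-chaperone *dnajb11* was at 13.8, 59.9, 56.6 and 67.4 cpm (1.91, 1.53 and 1.83). On the TMM scale these 3 were highest at 3 dpa and lowest at 6 dpa. The member of the ER protein *creld2* was at 3.80, 15.6, 20.6 and 29.3 cpm (1.83, 1.93 and 2.49). The other transcript of its component had 40, 1148, 57 and 79 reads at 0, 3, 6 and 14 dpa. The component was at 2.66, 1.37 and 1.93 and so, unlike the member, stood highest at 3 dpa. The *mia3* member, of a gene that loads procollagen for export, was at 4.13, 16.5, 28.4 and 20.6 cpm (1.79, 2.28 and 1.86), with its component of 6 transcripts at 0.73, 0.96 and 0.40. Of the chaperones outside the ER, the mitochondrial *hspd1* (Hsp60) was at 55.5, 312, 261 and 357 cpm (2.29, 1.73 and 2.23).

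Further members have roles in nuclear transport and RNA processing. Importin alpha, *kpna2*, which carries proteins with a nuclear localization signal, was at 23.8, 273, 145 and 279.9 cpm at 0, 3, 6 and 14 dpa, with log2 fold changes of 3.31 at 3 dpa (95% interval 3.16 to 3.47), 2.10 at 6 dpa (95% interval 1.94 to 2.26) and 3.10 at 14 dpa (95% interval 2.94 to 3.25). *ranbp1*, which acts on the Ran GTPase cycle, was at 63.4, 284, 293 and 467 cpm (1.96, 1.71 and 2.42). The nucleolar phosphoprotein *nolc1* was at 7.40, 37.7, 35.9 and 59.9 cpm (2.14, 1.78 and 2.56). On the TMM scale all 3 were lowest of the regenerating stages at 6 dpa. Of the RNA-binding proteins, *rbm14b* was at 15.8, 85.1, 77.3 and 92.1 cpm (2.23, 1.79 and 2.09). *ssb*, the La protein that binds the ends of RNA polymerase III transcripts, was at 34.3, 123, 142 and 179 cpm (1.64, 1.55 and 1.92). The TDP-43 paralog *tardbpl* is paired with members of 2 components, at 100.2, 369, 356 and 521 cpm (1.68, 1.33 and 1.92) and at 4.32, 18.2, 17.7 and 23.3 cpm (1.87, 1.53 and 1.97). Their components rose less, by 1.21, 0.88 and 1.65 for the first and by 1.58, 1.32 and 1.87 for the second. If the 2 members are similar in sequence, reads could be divided between them, which was not examined. The transcript matched to SUGP2, a protein with SURP and G-patch domains that is in no list, is among the 5 members with the most reads at 6 dpa and was at 111, 682, 739 and 1189 cpm (2.41, 2.23 and 2.96).

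**Figure D4:**
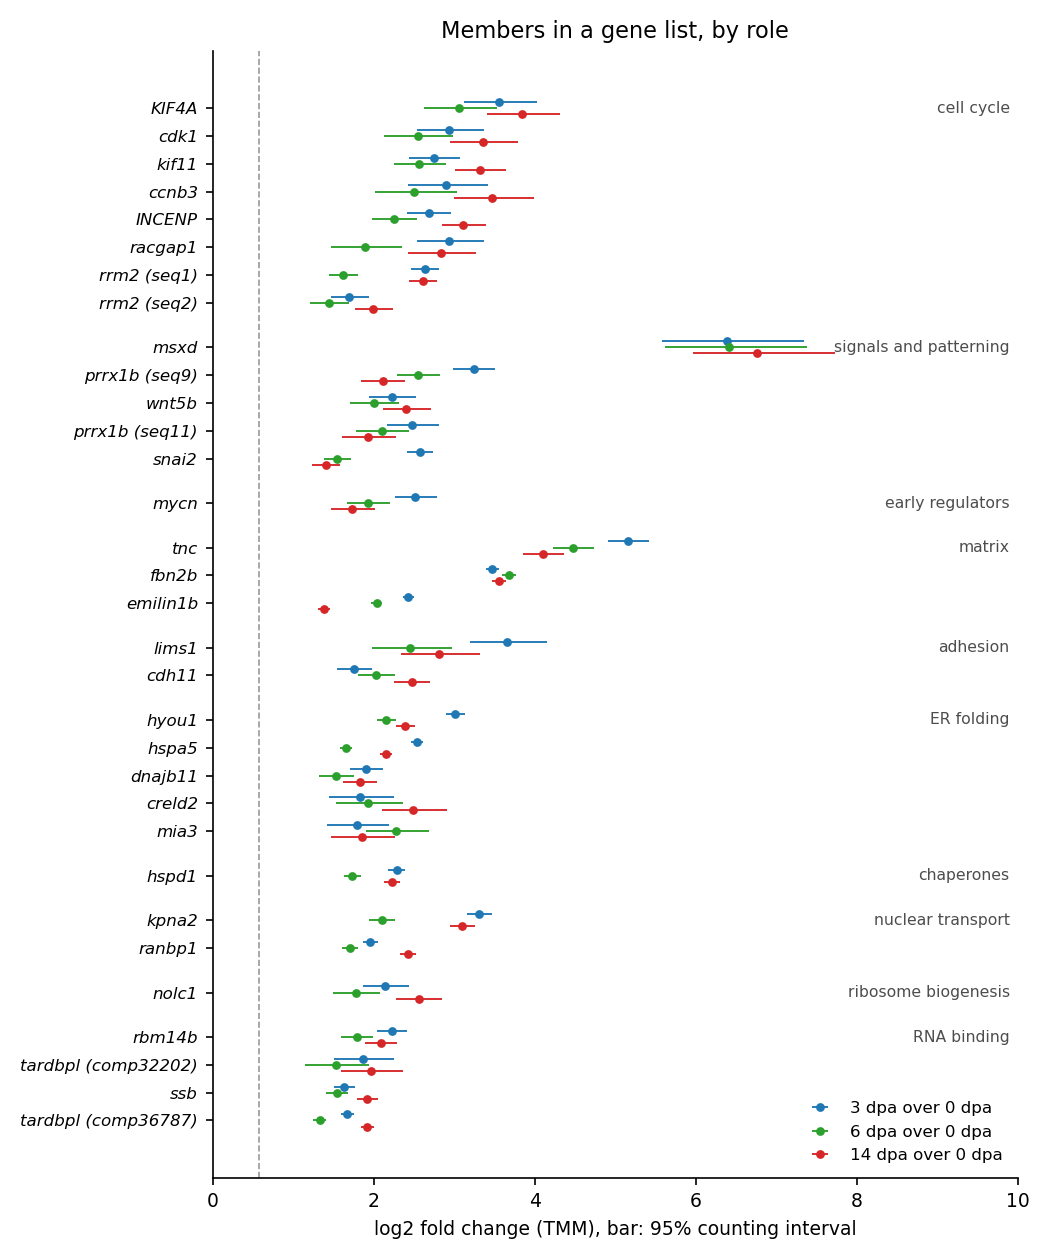
Log2 fold change over 0 dpa (TMM) of the 32 members in a gene list, by role, at 3 dpa (blue), 6 dpa (green) and 14 dpa (red), with bars for the 95% counting interval and a dashed line at 0.58. All lie past the line, as the choice of members required, with *msxd* and *tnc* farthest. Cell cycle members have their lowest value at 6 dpa on this scale, which itself moves 6 dpa against 3 dpa by -0.30. In cpm, 4 of the 8 were lower at 6 than at 3 dpa beyond counting error.

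Named members in no list were further *tmpoa*, which codes for lamina-associated polypeptides, at 2.16, 14.8, 16.3 and 24.0 cpm (2.57, 2.41 and 3.02), and the zinc finger gene *zmym2*, at 6.88, 48.0, 43.6 and 43.7 cpm (2.60, 2.16 and 2.21). Their components rose less, *tmpoa* by 1.17, 1.39 and 2.36 and *zmym2* by 1.15, 0.71 and 1.35. A pair of members are matched only to zebrafish gene identifiers among the 25 highest-ranked named ones. ENSDARG00000032296 was at 1.38, 27.1, 29.9 and 42.9 cpm (4.09, 3.94 and 4.50), and ENSDARG00000043976 at 15.9, 119, 119.9 and 120.0 cpm (2.71, 2.42 and 2.46). The component of ENSDARG00000032296 rose far less, by 0.91, 0.99 and 1.49, and that of ENSDARG00000043976 by 2.16, 2.16 and 2.34. The remaining 17 named members lay between 1.71 and 2.40 at 3 dpa, between 1.36 and 2.36 at 6 dpa and between 1.38 and 2.64 at 14 dpa. They include the chromatin genes *ezh2*, the methyltransferase of Polycomb complex PRC2, *cbx3a*, a heterochromatin protein, and *hcfc1b*, the inner nuclear membrane gene *lemd3*, the transport receptor *tnpo2*, *rcc2*, the nucleolar *mphosph10* and the Mediator subunit *med14*. The others are the kinase *mapk6*, the netrin receptor *unc5b*, the immune checkpoint ligand *cd276*, the ubiquitin ligase *mgrn1b*, *sepn1*, *gnptab*, which tags lysosomal enzymes, the enzymes *gpt2* and *ugdh*, and ENSDARG00000020057. *ugdh* makes the UDP-glucuronate from which hyaluronan and proteoglycan chains are built. The component of *mgrn1b* did not move with its member and was at -0.19, -0.03 and 0.01, and that of *cd276* was at 1.71, 0.61 and 0.20.

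Most members have no name. Of the 200, 127 are paired with no gene, and 11 more only through another transcript of their component, among them those of *aclya*, *nf2a*, *sp9*, *tfr1a* and *sec14l1*. Of the 75 members that are alone in their component, 43 are unnamed. The most abundant of these, comp41361_c0_seq1, had 1734, 50625, 26771 and 25135 reads at 0, 3, 6 and 14 dpa, or 114, 1371, 1405 and 1352 cpm, with log2 fold changes of 3.39, 3.13 and 3.12.

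Within the regenerating stages the rule allowed differences of up to 2-fold, and the members used that room unevenly. In cpm, 112 members were highest at 14 dpa, 48 at 6 dpa and 40 at 3 dpa. On the TMM scale, which moves 14 dpa against 3 dpa by -0.25, the numbers were 97, 30 and 73. The median log2 ratio of 14 over 3 dpa in cpm was 0.33, against 0.23 over all transcripts that passed the rule's limits. For 129 members the counting interval of that ratio lay above 0, for 36 below it. The 8 cell cycle members lay between 0.15 (95% interval 0.00 to 0.29) for *racgap1* and 0.83 (95% interval 0.68 to 0.98) for *ccnb3*. At the other end stood *snai2* with -0.92 (95% interval -1.0 to -0.83), the first *prrx1b* member with -0.88 (95% interval -0.98 to -0.77), *tnc* with -0.80 (95% interval -0.86 to -0.75) and *emilin1b* with -0.80 (95% interval -0.83 to -0.76). The *cdh11* member had 0.97 (95% interval 0.87 to 1.06), and the *creld2* member 0.91 (95% interval 0.74 to 1.08). Summed over its component, *creld2* was instead highest at 3 dpa. On the TMM scale *racgap1* and the first *rrm2* member change sign and were higher at 3 dpa, as do *hspd1*, *dnajb11*, *kpna2* and *rbm14b*. For these 2 cell cycle members the counting interval on that scale includes 0. Of *hspd1* and *dnajb11*, 1 had an interval below 0. From 6 to 14 dpa, all 8 cell cycle members were higher at 14 dpa, with a median of 0.79 in cpm, against 0.29 over all members.

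**Figure D5:**
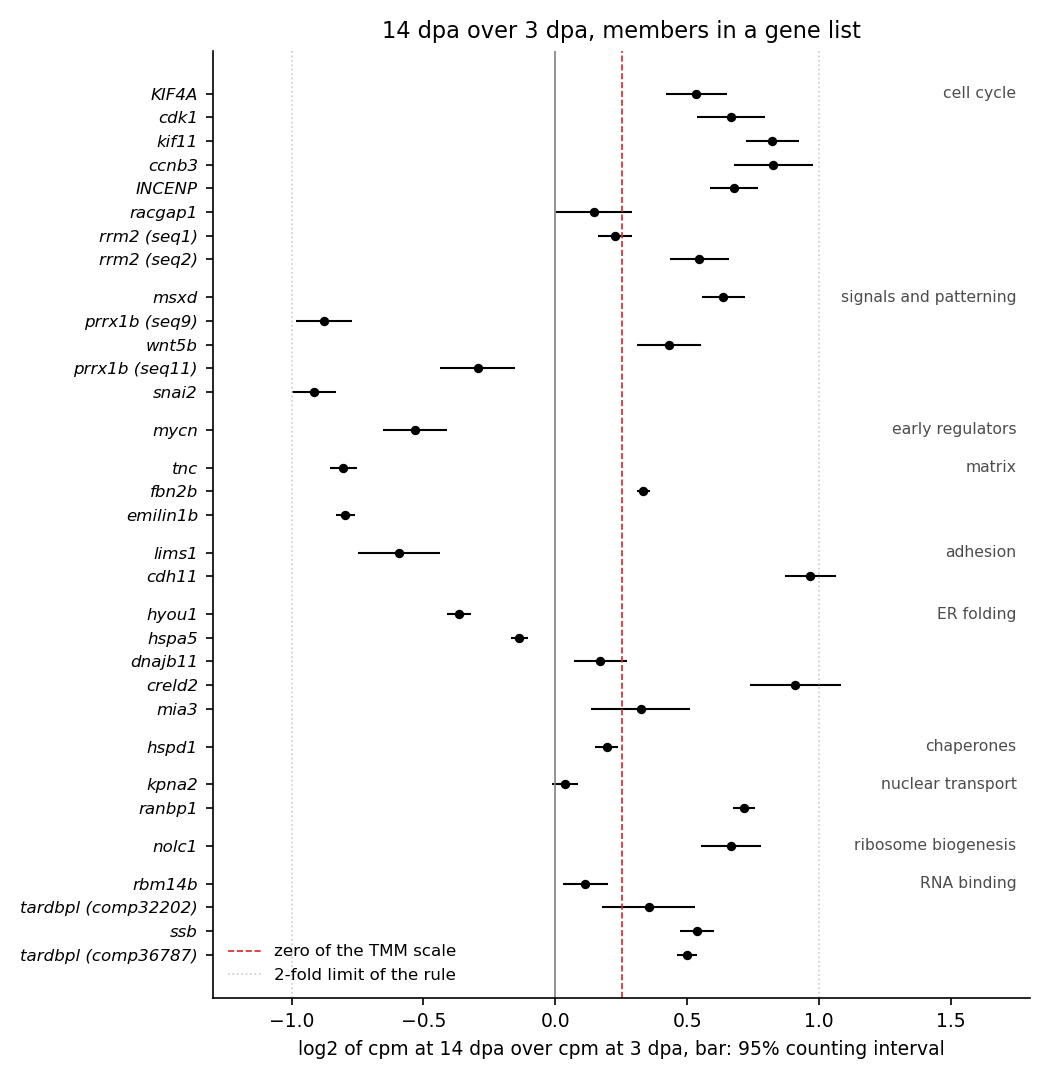
Log2 ratio of cpm at 14 dpa to cpm at 3 dpa for the 32 members in a gene list, by role, with bars for the 95% counting interval. Dotted lines mark the 2-fold limit of the rule and the red dashed line the value that is 0 on the TMM scale. Cell cycle members lie right of 0, while *snai2*, *prrx1b*, *mycn*, *tnc*, *emilin1b*, *lims1*, *hspa5* and *hyou1* lie left of it.

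The same lists were read over all transcripts that the study's table of zebrafish orthologs names without regard to direction, held here in part, with 1867 transcripts of which 18 are members. In that table, 687 of the 1833 transcripts compared at 3 dpa were higher, 522 of 1802 at 6 dpa and 629 of 1787 at 14 dpa, while 558, 594 and 608 were lower. Of the cell cycle and DNA replication list, 52 of 57 transcripts were higher at 3 dpa, 43 of 60 at 6 dpa and 53 of 57 at 14 dpa, with medians of 1.84, 1.14 and 2.19 and with 1 lower at 3 dpa and none at 6 or 14 dpa. The 8 cell cycle members likewise had their lowest log2 fold changes at 6 dpa, but TMM itself moves 6 dpa against 3 dpa by -0.30. Their median log2 ratio of 6 over 3 dpa was -0.41 on the TMM scale and -0.12 in cpm. In cpm the counting interval lay below 0 for 4 of the 8 and included 0 for the others. Over all members, that median was -0.26 on the TMM scale and 0.03 in cpm. On the TMM scale the interval lay below 0 for 133 members and above 0 for 37. Of the ER folding list, 15 of 22, 12 of 23 and 13 of 22 were higher at 3, 6 and 14 dpa, with medians of 0.82, 0.59 and 0.69, and of the signals and patterning list 19 of 28, 16 of 29 and 16 of 28, with medians of 1.07, 0.83 and 0.80. Lists with no member at all were matrix proteases (9 transcripts in that table), inflammation and leukocytes (10) and ribosomal proteins (94). The proteasome (19) and transport and metabolism of dividing cells (16) had none either. With 18 members among 1867 transcripts, an absence from lists of these sizes is not read as a trait of the members. Of the 9 matrix protease transcripts compared, 6 rose and 2 fell at 3 dpa, 5 rose and 1 fell at 6 dpa, and at 14 dpa 1 of 7 rose and 6 fell past the cut-off. Of the 10 in the inflammation list, 4 rose and 4 fell at 3 dpa, 2 rose and 5 fell at 6 dpa, and at 14 dpa 2 of 9 rose and 7 fell, with medians of -0.16, -0.96 and -1.46. Of 94 transcripts for ribosomal proteins and translation factors, 8, 2 and 4 were higher and 50, 70 and 65 lower at 3, 6 and 14 dpa. Their medians of -4.11, -1.17 and -5.90 are for single assembled transcripts, not component sums, and were far less negative at 6 dpa than at 3 and 14 dpa. The cause of these swings was not tested.

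Marker genes of several cell types differed between the stages. None of the members is in a marker list, but the largest of these lists matched 52 transcripts. Since 62 of the 4914 named transcripts are members, this absence is not read as a trait of the members. Markers were counted on transcripts matched by name, so reads on unmatched transcripts of the same gene are left out. A count of 0 thus need not mean that the gene was silent. In these bulk samples, fewer cells of a type, less RNA per cell and reads moving to an unmatched transcript cannot be told apart. Over the matched genes, the summed TMM-scaled cpm of 10 leukocyte markers was 337, 1188, 762 and 279 at 0, 3, 6 and 14 dpa, and that of the skeletal muscle markers 4219, 1104, 672 and 399. Of the 12 genes matched in the muscle list, 3 of which are myosin heavy chains of other cells, 10 were lower at each stage. Of these 3, *myh10* had 2836, 8400, 8192 and 6246 reads, the most of the 12 genes at 6 and 14 dpa. The sum thus understates the fall of the skeletal muscle genes, such as *tnnt1* with 11713, 5823, 508 and 35 reads. For 13 epidermal markers the sum was 1455, 1206, 1079.8 and 823, with *cldnb*, *evpla*, *esrp2* and *upk3b* at 0 reads in all regenerating libraries, and for 6 cartilage and bone markers 3782, 9811, 5606 and 2437, most of it *col2a1b*. By gene, 4 of these 6 were lower at each stage, and 2, 2 and 0 were higher at 3, 6 and 14 dpa. Of the 10 leukocyte genes, 5, 5 and 1 were higher and 2, 2 and 4 lower, and of the 13 epidermal genes 2, 1 and 1 were higher and 9, 9 and 8 lower. Of the leukocyte markers, *lyz* had 35 reads at 0 dpa and 0 at 3, 6 and 14 dpa. The share that these shifts have in the members' values was not tested.

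Among the study's predicted pairs of miRNAs and genes, 3 concern members, namely miR-24 with *hyou1*, miR-204 with *cdh11* and miR-338 with *lemd3*. The study picked these miRNAs as lower and these genes as higher in the same libraries, so opposite directions are not independent evidence. The study predicted these pairs from mature miRNA sequences and from versions of them that allow a bulge, and no target site was examined here. The mature axolotl sequences are shown with the seed, bases 2 to 8 from the 5′ end, in capitals.
miR-24-1-3p: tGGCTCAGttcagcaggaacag
miR-204-2-5p: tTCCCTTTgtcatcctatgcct
miR-338-1-3p: tCCAGCATcagtgattttgttga
The 3 seeds differ from one another. miR-204-2-5p had 795, 194, 91 and 70 reads at 0, 3, 6 and 14 dpa, with log2 fold changes of -1.13, -2.36 and -3.27 after TMM scaling of the miRNA table, beside 1.76, 2.03 and 2.47 for the *cdh11* member. miR-338-1-3p had 202, 51, 40 and 37 reads and log2 fold changes of -1.08, -1.57 and -2.21, beside 1.73, 1.43 and 1.87 for *lemd3*. miR-24-1-3p had 6201, 3678, 2204 and 3149 reads and 0.15, -0.73 and -0.74, beside 3.01, 2.16 and 2.40 for *hyou1*, so it was not lower at 3 dpa, where *hyou1* was highest.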

How the data were processed

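The 4 axolotl mRNA libraries and, for 3 miRNAs, the 4 small RNA libraries were used. The authors used Trimmomatic, RSEM and edgeR per the submitters' processing notes, and per the study's methods the reads were assembled de novo with Trinity. Versions are not given in the sources used here. The deposited values are log2 of whole numbers of reads, although the tables are titled as log2 cpm. Repeats among 93299 lines were dropped, which left 90099 transcripts. An mRNA entry of 0, which can be 0 or 1 read, was read as 0 in fold changes and as 1 read in the choice of members and in cpm. In the miRNA table, 7 spreadsheet error marks were read as 0.

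Libraries were scaled by TMM (30% and 5% trimmed, 0 dpa as reference, factors 0.818, 0.942, 1.16 and 1.12) and a prior count of 0.125 was added, with SciPy 1.17.1, NumPy 2.4.6 and pandas 2.3.3 under Python 3.11.15 (figures with matplotlib 3.10.9). Counts over all transcripts took those with at least 10 reads in the libraries compared. The cut-off of 0.58 is 1.49-fold. A ratio to 0 or 1 read is given as a bound at 3 reads (0.197 cpm at 0 dpa). Scaling, intervals and the choice of members were tested on simulated data. Amplified reads are not independent molecules, so intervals and floors cover counting error only. With 1 library per stage, no test was made.

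Members, lists and alternatives were chosen with earlier results of these data known. Named are the 10 members with the largest ordering value, every member that a supplementary table pairs with a gene or protein (full values for the 25 highest-ranked and for those in a list), the 5 with most reads at 6 dpa and those around rank 200. Others were named after their values were seen, and some items the rule names are not reported here. The supplementary tables, some held in part, gave names and miRNA sequences only. Neither genome positions nor transcript sequences were used here. Alternatives were other scalings, prior counts, filters, limits of the rule and component sums.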

Additional observations from a re-analysis of the deposited data

How the results depend on the processing

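No paired analysis was possible because each stage has 1 library. The members depended on the limits of the rule. Of the 200, 97 were chosen again with a minimum of 100 reads, 70 with 1000 reads, 100 with a limit of 1.5-fold and 118 with 3-fold. Leaving the 3, 6 or 14 dpa library out of the rule kept 92, 112 or 43. Pseudocounts of 0.1 and 1 cpm, TMM-scaled totals and reading entries of 0 as 0 reads kept 197, 195, 157 and 200. On component sums, the rule chose 100 of the 195 components again.

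The median log2 fold change of the members moved beyond the median counting error in 2 cases. Summing over components gave 1.81, 1.42 and 1.75 at 3, 6 and 14 dpa, and total counts gave 2.53 at 6 dpa and 2.84 at 14 dpa. All 200 stayed past 0.58 at each stage under every scaling and prior count tried, and past 1 under TMM. With component sums, 176, 160 and 162 were past 0.58. Total counts shifted the median of all transcripts by 0.20, 0.50 and 0.45 at 3, 6 and 14 dpa, and 70.1% of changed transcripts were then higher at 6 dpa, against 51.6% under TMM. Of the 159 log2 fold changes of the 53 members given with full values, total counts moved 122 and upper-quartile scaling 52 by more than their counting error, and the other 5 settings 0 to 21. No sign changed, but with a lowest value of 1.28 the choice of members left little room for that. The following were added after seeing the data. Components higher at all 3 stages numbered 171 with total counts, 147 to 156 with the other scalings and with entries of 0 read as 1 read, and 122 with a cut-off of 1, against 149. On the TMM scale, 73 members were highest at 3 dpa and 30 at 6 dpa, against 40 and 48 in cpm. Without the members at 3 reads or fewer at 0 dpa, the medians were 2.18, 1.92 and 2.30. The cause of these shifts was not tested. Depth limits the values at 0 dpa most, where the members' median is 5.83 cpm.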

Other observations

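The limit of 2-fold between regenerating stages kept out 153 transcripts whose ordering value was as high as that of the members. In cpm, 98 of them were highest at 14 dpa, 34 at 6 dpa and 21 at 3 dpa. Chosen after their values were seen, the named ones highest at 14 dpa included further cell cycle genes, such as *smc2*, a condensin subunit (37, 1220, 633 and 1258 reads at 0, 3, 6 and 14 dpa), the mitotic kinase *aurka* (34, 960, 392 and 817 reads) and the kinetochore gene *cenpf* (21, 743, 553 and 799 reads), each between 2.05 and 2.14 times higher at its highest than at its lowest regenerating stage. The matrix gene *postnb*, periostin, had 525, 7630, 10500 and 14872 reads. Those highest at 3 dpa included the other transcripts of *tnc*, the larger of which had 1477, 70204, 26457 and 14531 reads, and the collagenase *mmp13b* with 75, 9427, 2732 and 369 reads, 12.9 times higher at 3 dpa than at 14 dpa in cpm. A transcript matched to keratin 17, comp10402_c0_seq1, had 77, 46801, 29171 and 13093 reads and missed the limit narrowly, at 2.17 times.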
